A study of Homo sapiens with 24 samples.

Results

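The numbered ZNF genes are human protein-coding genes named ZNF and a number, most of which encode C2H2 zinc finger proteins. The table lists 476 of them among 58381 gene IDs. The 230 described here had a mean of at least 3 FPKM (fragments per kilobase of transcript, scaled to the mapped fragments of a library) over the 24 libraries, with ZNF254 left out. The rule uses this mean level and no other measured value, so their levels are given as a description. It was set with earlier results of these data known. The other 246 lay under 3 FPKM, and 14 of those were listed at 0 in every library. Just inside the limit were ZNF229 (3.02 FPKM), ZNF112 (3.02 FPKM) and ZNF738 (3.05 FPKM). Just outside it were ZNF416 (2.95 FPKM), ZNF273 (2.92 FPKM) and ZNF616 (2.92 FPKM).

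The cells were HaCaT, an immortalised but non-malignant human keratinocyte line. Clonal lines transduced with an empty vector, or with the microRNA hsa-miR-186, were passaged with 0 or 100 nM inorganic arsenic (iAs) and their messenger RNA was sequenced at weeks 12 and 29. There were 3 clones per construct, so the 8 groups (vector or miR-186, 0 or 100 nM, week 12 or 29) hold 3 libraries each. Every group is thus a transduced, cloned and long-passaged line, and a construct difference rests on 3 clones against 3 others. The labels call the triplicates independent biological ones, and they do not say which replicate number is which clone.

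A C2H2 finger is a short fold held by a zinc ion that reads a few bases of DNA, and these proteins string many fingers together. Many also carry a KRAB box, which recruits the corepressor TRIM28 and, through it, the histone methyltransferase SETDB1 and heterochromatin proteins, above all at transposable elements. A smaller number work elsewhere, in splicing, on the ribosome, at the spindle or as activators of promoters. The genes lie in tandem clusters, most of all on chromosome 19. A microRNA lowers the messages it pairs with; sites for miR-186 were not analysed here.

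The fingers are joined by a short linker of conserved sequence, and the repeat can be seen in the messages. It is printed here for ZNF426, the member called higher with miR-186 at both doses and both weeks. It lies in coding sequence of exon 8, the last, at chr19:9529040-9529138 (GRCh38, minus strand), and the capitals mark 2 linkers, whose starts lie 84 bases apart.
ZNF426 linkers: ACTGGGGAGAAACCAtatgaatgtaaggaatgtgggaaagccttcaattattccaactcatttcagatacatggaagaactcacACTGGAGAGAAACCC
A search of the sense strand for the usual linker codons, written ACNGGNGANAANCCN, found at least 1 match in the transcripts of 168 of the 230 members (73.0%), against 3.7% of 12011 protein-coding genes tested. At least 3 matches were found in 131 members (57.0%, against 2.38%), and the most was 19, in ZNF721. ZNF426 had 6, ZNF514 had 6 and ZNF525 had 14, whereas ZNF548 and ZNF586 had none of this spelling.

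The start regions of 5 members are shown because their levels carry the construct and time differences below. Each is the 250 bases before the start in RefSeq (GRCh38.p14), read along the gene. RefSeq's start can differ from that of the gene positions given below, which are those of GENCODE. The regions of ZNF638 and ZNF688, and nearly all of that of ZNF410, lie inside those positions. The capitals mark CCGGAAG (the core bound by ETS factors), GGGCGG (the GC box bound by SP1-like factors) and TGACGTCA (the cyclic AMP response element), on either strand. The motifs were chosen with these sequences in view.
ZNF426 (chr19:9538646-9538895, minus strand): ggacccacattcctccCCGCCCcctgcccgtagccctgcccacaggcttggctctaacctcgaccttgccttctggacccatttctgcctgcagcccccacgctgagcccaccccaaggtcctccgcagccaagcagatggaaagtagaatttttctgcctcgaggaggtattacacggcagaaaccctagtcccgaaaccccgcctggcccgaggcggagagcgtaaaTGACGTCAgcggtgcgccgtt
ZNF548 (chr19:57389604-57389853, plus strand): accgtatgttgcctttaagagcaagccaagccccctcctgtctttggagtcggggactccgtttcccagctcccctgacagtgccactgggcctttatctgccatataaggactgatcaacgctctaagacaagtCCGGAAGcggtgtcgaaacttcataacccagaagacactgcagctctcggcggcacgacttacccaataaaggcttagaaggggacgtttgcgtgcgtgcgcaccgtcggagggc
ZNF410 (chr14:73886609-73886858, plus strand): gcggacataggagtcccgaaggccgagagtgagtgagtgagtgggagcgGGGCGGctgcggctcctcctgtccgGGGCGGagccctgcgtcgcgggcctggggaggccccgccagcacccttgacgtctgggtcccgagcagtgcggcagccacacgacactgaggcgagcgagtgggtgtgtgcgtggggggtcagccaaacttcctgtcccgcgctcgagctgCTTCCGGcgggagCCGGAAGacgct
ZNF688 (chr16:30571715-30571964, minus strand): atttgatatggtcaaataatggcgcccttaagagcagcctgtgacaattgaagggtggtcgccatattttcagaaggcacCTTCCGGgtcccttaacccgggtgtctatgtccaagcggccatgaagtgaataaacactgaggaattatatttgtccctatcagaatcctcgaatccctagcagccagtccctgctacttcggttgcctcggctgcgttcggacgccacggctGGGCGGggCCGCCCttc
ZNF638 (chr2:71331532-71331781, plus strand): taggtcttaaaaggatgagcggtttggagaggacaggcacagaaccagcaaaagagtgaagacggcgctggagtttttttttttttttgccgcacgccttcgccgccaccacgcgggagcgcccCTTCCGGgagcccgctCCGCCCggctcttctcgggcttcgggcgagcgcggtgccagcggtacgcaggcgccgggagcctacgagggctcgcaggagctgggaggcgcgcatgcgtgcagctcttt
RefSeq start regions matched 197 of the 230 members. The ETS core was in 63 of these (32.0%), against 16.9% of the start regions of 9732 protein-coding genes tested and 8.82% of all 27305. The GC box was in 65.5% of members' start regions, against 67.6% and 42.3%, and the cyclic AMP element in 4.57%, against 2.98% and 1.77%. Between untreated miR-186 and vector clones at week 29, the median log2 difference was 0.35 over the 63 members with the ETS core and 0.28 over the 134 without it.

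Most members were expressed at low levels. The median member had 6.41 FPKM, 80 lay under 5 FPKM, 69 at 10 FPKM or more and 26 at 20 FPKM or more. The 8 highest were ZNF706 (93.6 FPKM), ZNF207 (89.1 FPKM), ZNF664 (86.8 FPKM), ZNF410 (67.6 FPKM), ZNF146 (51.1 FPKM), ZNF704 (44.9 FPKM), ZNF655 (44.3 FPKM) and ZNF638 (44.0 FPKM). ZNF207 binds the checkpoint protein BUB3 at the spindle, ZNF410 activates transcription of CHD4, and ZNF638 helps silence retroviral DNA. These 3 have roles other than that of a KRAB repressor, and each had at most 1 linker match. Of the 8, ZNF706 is also listed below with members that act on RNA, the ribosome or the spindle. ZNF146 is listed there with chromatin and promoter factors without a KRAB box. Together the 230 genes made up 0.281% to 0.361% of the summed FPKM of a library.

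Levels varied between libraries about as much as those of other genes. The highest library had a median of 2.48 times the lowest, with 50 members under a ratio of 2 and 14 over 5, against a median of 2.6 over 10549 genes of at least 3 FPKM with no library at 0. ZNF622, a factor of ribosome biogenesis, varied least (15.3 to 20.2 FPKM, a ratio of 1.32). ZNF358 varied most (0.827 to 17.0 FPKM, a ratio of 20.6), followed by ZNF598, the ubiquitin ligase of collided ribosomes (2.10 to 21.5 FPKM, a ratio of 10.3). Both have GC-rich transcripts (69.1% and 65.0%). Across the 24 libraries the members varied together: the median correlation between pairs was 0.18, against 0.00966 between pairs of 10571 genes of at least 3 FPKM, as a description over libraries that share groups and depth.

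Base composition has to be read beside every change of these genes. Their transcripts are poor in G and C, with a median of 43.7% (34.0% to 70.1%) against 48.3% in protein-coding genes tested, and 162 of 230 lay below that. In each library, genes with a mean over 1.5 FPKM were taken as deviations from their log2 mean over the 24 libraries. These deviations sloped with transcript GC content, by −0.389 to 0.442 log2 units per 10 points of GC. The slope was positive in all 3 vector libraries at 100 nM and week 12 (0.191, 0.238 and 0.442), and the median member was low there (−0.05, −0.19 and −0.26 on the log2 scale). It was negative in all 3 miR-186 libraries at 0 nM and week 29 (−0.193, −0.293 and −0.333), and the median member was high there (0.15, 0.34 and 0.17). Not every library followed this: miR-186 replicate 2 at 100 nM and week 12 had a slope of 0.396 and a median member at 0.004. A value with a GC correction, which removes a smooth curve on GC content from each library, is therefore given beside the main results; the part of GC content in the uncorrected values was not tested beyond this.

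**Figure D1:**
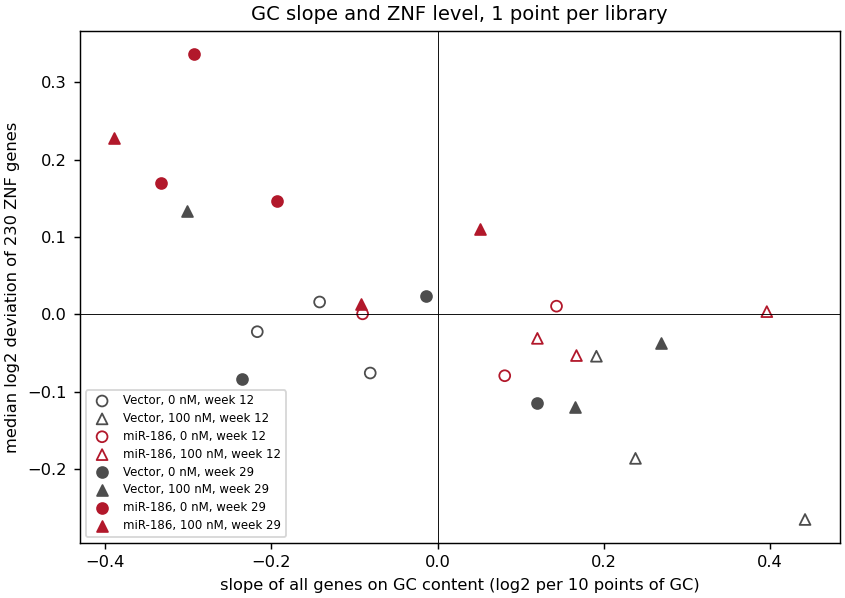
Each point is 1 of the 24 libraries. The x axis gives the slope of genes with a mean over 1.5 FPKM on transcript GC content (log2 per 10 points of GC). The y axis gives the median log2 deviation of the 230 ZNF genes from their means over the libraries. The 4 libraries with the most negative slopes, 3 of them miR-186 clones at week 29 (filled red), lie between 0.13 and 0.34, whereas the next 2, untreated vector libraries, lie at −0.08 and −0.02, and the vector library with a slope of 0.442 lies lowest.

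The keratinocyte markers KRT5, KRT14, TP63, ITGA6, ITGB4, CDH1, SFN and DSG3 were present in all 24 libraries, the lowest value being 15.8 FPKM (SFN). Of the markers of other skin cell types, COL1A2, PDGFRB, TYR, PTPRC and PECAM1 were at or below 0.208 FPKM, while the endothelial cadherin CDH5 (3.67 to 20.7 FPKM), LUM (0.377 to 17.2 FPKM), COL1A1 (0.286 to 3.53 FPKM) and PMEL (0.708 to 2.31 FPKM) were above it. Summed FPKM per library ran from 712797 to 905683. The read depth of the libraries is not given by FPKM and is unknown here.

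In all, 16 comparisons were tested with limma on log2(FPKM + 0.5). A gene is called changed at an adjusted p under 0.05, adjusted over the 14228 genes that averaged 0.5 FPKM or more, as all 230 members did. Of the members, 60 were called in at least 1 of the 12 comparisons between 2 groups, 16 of them in more than 1, and 170 in none. That is 26.1% of members, against 19% of all genes tested. The 12 comparisons share groups or clones, so their calls are not independent of each other. A fold change on this scale understates that of a low gene.

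Between constructs, the clearest members were ZNF426 and ZNF548, both higher in miR-186 clones. ZNF426 was called higher in all 4 construct comparisons, ZNF548 in 3, and ZNF514 and ZNF525 in 2 each. ZNF410, among the most abundant members, was lower in untreated miR-186 clones at week 12, and ZNF688 was lower at 100 nM and week 12. In all, 21 members were called in a construct comparison (9.13%, against 6.18% of all genes tested), 15 higher and 6 lower. Of the 15, 9 lie on chromosome 19, where 92 of the 230 members (40%) lie.

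ZNF426 (ENSG00000130818, chromosome 19, 9523224 to 9538645) encodes a KRAB zinc finger protein. At week 12 its levels were 5.09, 3.15 and 3.50 FPKM in untreated vector clones and 6.96, 5.93 and 8.95 FPKM in untreated miR-186 clones. At 100 nM they were 4.0, 2.82 and 3.29 FPKM against 8.11, 6.84 and 8.48 FPKM. All miR-186 libraries were above all vector libraries at both doses. At week 29 the untreated levels were 4.16, 3.65 and 4.05 FPKM against 10.3, 6.75 and 10.5 FPKM. At 100 nM they were 4.30, 3.11 and 4.28 FPKM against 11.3, 8.31 and 7.90 FPKM. The groups did not overlap in any of the 4 comparisons, nor did all 12 libraries of one construct overlap all 12 of the other. The log2 differences were 0.82, 1.11, 1.1 and 1.13 (SE 0.21 each), with limma adjusted p of 0.037, 0.0084, 0.0090 and 0.011 in the order given, and 0.99, 1.13, 0.94 and 1.04 with the GC correction. Leaving out 1 library ended the call at 0 nM and week 12 for every library except vector replicate 1, at 100 nM and week 12 for vector replicate 2, at 0 nM and week 29 for miR-186 replicate 3, and at 100 nM and week 29 for vector replicate 2 or miR-186 replicate 1 (adjusted p up to 0.13, 0.055, 0.057 and 0.084), and a fit restricted to the groups compared gave 0.13, 0.11, 0.053 and 0.18.

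ZNF548 (ENSG00000188785, chromosome 19, 57389850 to 57402992) had 2.50, 2.04 and 1.86 FPKM in untreated vector clones at week 12, against 4.23, 7.32 and 6.05 FPKM in miR-186 clones. At week 29 the untreated levels were 2.55, 1.56 and 1.19 FPKM against 5.17, 6.41 and 6.15 FPKM. At 100 nM the vector clones had 2.11, 1.37 and 0.980 FPKM at week 12 and the miR-186 clones 4.55, 5.31 and 4.49 FPKM. Every miR-186 library was above every vector library in these groups. At 100 nM and week 29 1 vector library (4.08 FPKM) came close to the lowest miR-186 library (4.35 FPKM), and the difference there did not pass (log2 0.93, SE 0.27, adjusted p = 0.11). The other 3 log2 differences were 1.25, 1.54 and 1.45 (SE 0.27; limma adjusted p = 0.013, 0.0041 and 0.0070), and 1.41, 1.38 and 1.46 with the GC correction. Untreated at week 29, the call held whichever library was left out (adjusted p up to 0.027) and when the fit held these groups alone (0.034). At 100 nM and week 12 it held without each library but not in the fit of the groups alone (0.097), and untreated at week 12 it held in 3 of 6 fits without 1 library (adjusted p up to 0.087) and not in the groups alone (0.068).

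Members of which every miR-186 library exceeded every vector library, 12 against 12, were ZNF426, ZNF525 and ZNF548; over all genes tested 61 did so (0.429%). No member was lower in that way, against 51 of all genes (0.358%). The 12 libraries of a construct come from 3 clones, so they are not 12 independent samples, and the construct comparisons measure the same clones again. ZNF525 was called at 100 nM and week 12 (log2 1.02, SE 0.20, adjusted p = 0.011) and untreated at week 29 (0.83, SE 0.20, adjusted p = 0.031), and lies on the same strand as the overlapping gene ZNF765, with which it may share reads. ZNF514 was called at week 12, at 0 nM (1.02, SE 0.25, adjusted p = 0.029) and at 100 nM (1.09, SE 0.25, adjusted p = 0.028). ZNF525 kept these calls in 3 and 1 of 6 fits without 1 library, and ZNF514 in 1 and 2 of 6. Limma fits of the groups alone called neither gene (adjusted p = 0.16 and 0.10 for ZNF525, 0.069 and 0.16 for ZNF514). ZNF514 overlaps the more abundant MRPS5 (42.4 FPKM) on the same strand. At week 29 its log2 differences were 0.49 and 0.70 (adjusted p = 0.28 and 0.19).

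**Figure D2:**
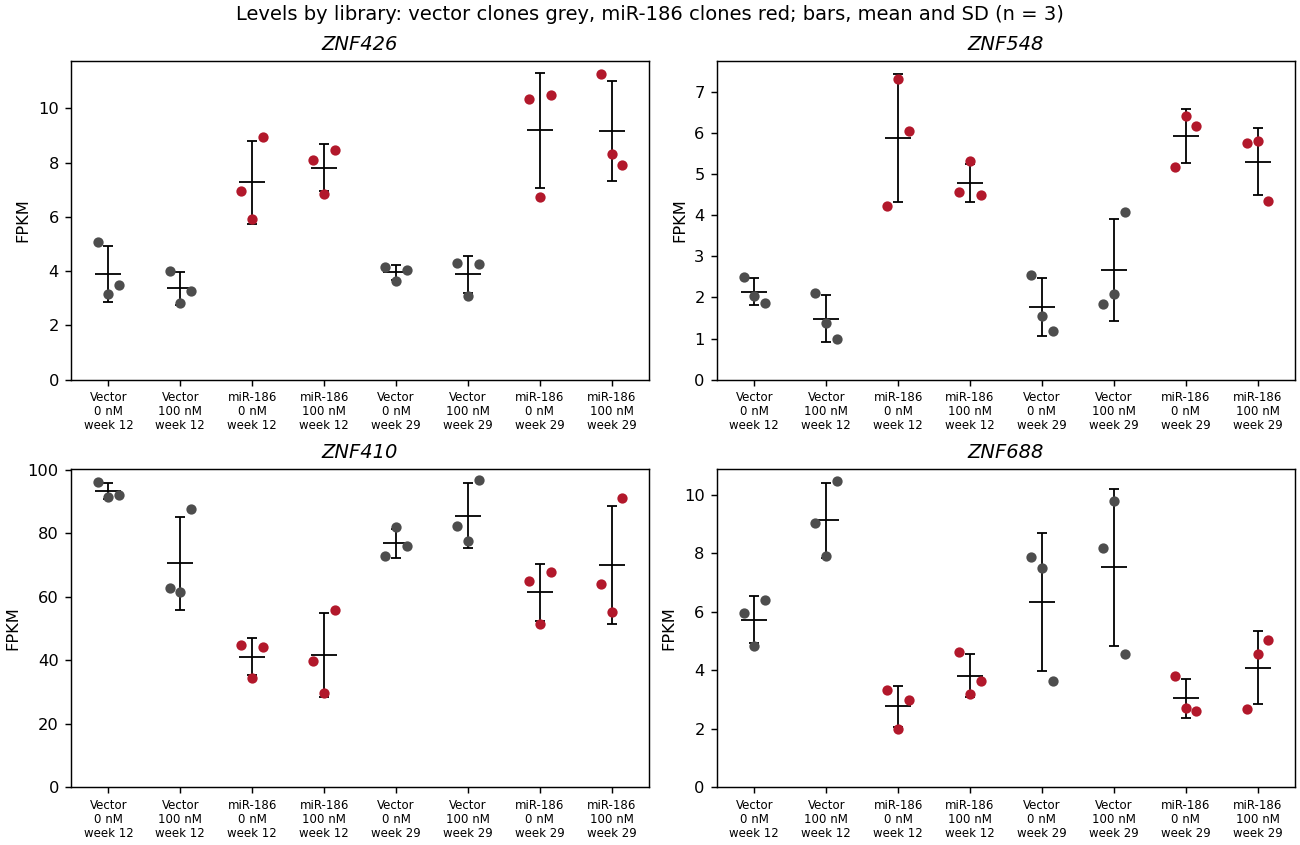
FPKM of ZNF426, ZNF548, ZNF410 and ZNF688 in the 8 groups, with 1 point per library (vector clones grey, miR-186 clones red) and bars for the mean and SD of 3 libraries. ZNF426 and ZNF548 are higher in all 12 miR-186 libraries than in any vector library, whereas the gap in ZNF410 is widest at week 12 and the constructs overlap in ZNF688 at week 29.

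ZNF410 (ENSG00000119725, chromosome 14, 73886617 to 73932511) is known for activating the gene of CHD4, a chromatin remodeller. Untreated vector clones at week 12 had 96.1, 91.5 and 91.9 FPKM and untreated miR-186 clones 44.8, 34.4 and 44.3 FPKM. The groups lay far apart. ZNF410 was 2.26-fold lower in miR-186 clones (log2 −1.18, SE 0.21; limma adjusted p = 0.0032), and −1.05 with the GC correction. The call held whichever library was left out (adjusted p up to 0.027) and when the fit held these groups alone (0.025). At 100 nM and week 12 the levels were 62.7, 61.6 and 87.5 FPKM against 39.6, 29.8 and 55.9 FPKM, which did not overlap but missed the threshold (log2 −0.78, SE 0.21, adjusted p = 0.057; 0.028 with the GC correction). At week 29 the log2 differences were −0.33 untreated and −0.31 at 100 nM (adjusted p = 0.38 and 0.51). The difference between weeks in the construct effect was not called for any member at either dose. CHD4 itself ran from 38.0 to 65.5 FPKM over the 24 libraries and was called in no comparison (log2 −0.06, SE 0.14, untreated at week 12). ZNF410 overlaps PTGR2 (11.8 FPKM, same strand) and FAM161B (3.13 FPKM, opposite strand).

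In untreated clones at week 12, 8 members were called (3.48%), 3 higher and 5 lower in miR-186 clones, against 3.44% of all genes tested. The share of members lay close to that of all genes. Besides ZNF410, the lower ones were ZNF689 (−0.68, SE 0.17, adjusted p = 0.027), ZNF747 (−0.63, SE 0.17, adjusted p = 0.047), ZNF18 (−0.62, SE 0.17, adjusted p = 0.047) and ZNF140 (−0.53, SE 0.14, adjusted p = 0.047). Among these 4, ZNF689 alone was called in any fit without 1 library, in 2 of 6. The median member differed by 0.02, against −0.03 over all genes, and by 0.11 against 0.02 with the GC correction. The GC correction gave 12 calls, 7 higher and 5 lower, with 4.84% of all genes called. Leaving out vector replicate 1, 2 or 3 left 3, 2 and 1 calls, and leaving out miR-186 replicate 1, 2 or 3 left 2, 1 and 4.

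At 100 nM and week 12, 6 members were called (2.61%, against 2.02% of all genes tested): ZNF548, ZNF426, ZNF514, ZNF525 and ZNF121 higher, and ZNF688 lower. ZNF121, a partner of MYC, had 6.54, 5.58 and 4.07 FPKM in vector clones and 10.3, 11.4 and 7.62 FPKM in miR-186 clones (log2 0.81, SE 0.21, adjusted p = 0.0498). ZNF688 (ENSG00000229809, chromosome 16, 30569346 to 30572734) had 9.04, 7.92 and 10.5 FPKM against 4.63, 3.20 and 3.62 FPKM (log2 −1.17, SE 0.29, adjusted p = 0.044). The groups did not overlap in either gene. ZNF688 was called in 0 of 6 fits without 1 library (adjusted p from 0.078 to 0.16), and ZNF121 in 2 of 6. In the limma fit of these groups alone their adjusted p was 0.099 and 0.25. The median member differed by 0.14, against −0.04 over all genes, 159 of 230 differences were positive, and the median was 0.17 with the GC correction. All 6 calls were also made with the GC correction, which gave 12 in all (10 higher and 2 lower), with 3.86% of all genes called. A fit of these groups alone gave 0 called members. Without vector replicate 2 or 3, 1 and 2 calls were left, and without miR-186 replicate 1 or 2, 2 and 3.

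In untreated clones at week 29 the members stood higher in miR-186 clones as a group. Of the 230, 183 had a positive log2 difference, and the median was 0.30, against 0.02 over all genes. Other finger families had medians of 0.372 (6 ZKSCAN genes), 0.275 (14 ZSCAN), 0.17 (33 ZBTB), 0.124 (13 ZFP), 0.0626 (8 SP) and −0.0164 (13 KLF). Over these 87 genes the median was 0.175, so a positive shift was not particular to the numbered ZNF genes. Called members were 13 (5.65%), all higher, against 1.76% of all genes called higher. In 99 members all 3 miR-186 libraries exceeded all 3 vector libraries, which 15.9% of all genes tested did. The median differed with GC content: it was 0.01 over the 77 members of highest GC content and 0.36 over the 77 of lowest. With the GC correction the median of all members was 0.18 against 0.02, and those of the highest and lowest groups 0.17 and 0.19. There were then 10 members called, with 3.24% of all genes called.

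The 13 were ZNF548, ZNF426, ZNF260, ZNF586, ZNF555, ZNF283, ZNF830, ZNF343, ZNF525, ZNF134, ZNF189, ZNF638 and ZNF217, of which 8 lie on chromosome 19. ZNF586 had 3.61, 3.90 and 3.37 FPKM in vector clones and 7.43, 8.30 and 8.24 FPKM in miR-186 clones (log2 1.04, SE 0.18, adjusted p = 0.0037). It was called whichever library was left out and in a fit of these groups alone, but overlaps ZNF587B on its own strand and ZNF552 on the other. ZNF830, a protein of the spliceosome, had 7.71, 11.3 and 8.78 FPKM against 14.8, 25.1 and 13.1 FPKM (log2 0.86, SE 0.20, adjusted p = 0.027). ZNF217, a transcription regulator amplified in breast cancers, had 20.6, 22.4 and 20.4 FPKM against 28.1, 33.1 and 33.8 FPKM (log2 0.57, SE 0.15, adjusted p = 0.041). ZNF260, ZNF555 and ZNF283 were higher by 1.06, 0.97 and 0.90 (adjusted p = 0.028, 0.042 and 0.017). ZNF260 was called in no fit without 1 library, ZNF555 in 1 of 6 and ZNF283 in 2 of 6. After the GC correction 9 of the 13 were called and all 13 kept their sign. The 4 no longer called were ZNF260, ZNF525, ZNF555 and ZNF638 (adjusted p = 0.062, 0.069, 0.063 and 0.053). Without vector replicate 1, 2 or 3, 3, 6 and 5 calls were left, and without miR-186 replicate 2 or 3, 3 and 4. A fit of these groups alone gave 2, ZNF548 and ZNF586.

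At 100 nM and week 29, ZNF426 was the 1 member called (0.435%, against 0.864% of all genes tested). The median member differed by 0.11, against 0.00 over all genes, and 153 of 230 differences were positive. No member was called without vector replicate 2 or miR-186 replicate 1, and 5 were without vector replicate 3 or miR-186 replicate 3.

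**Figure D3:**
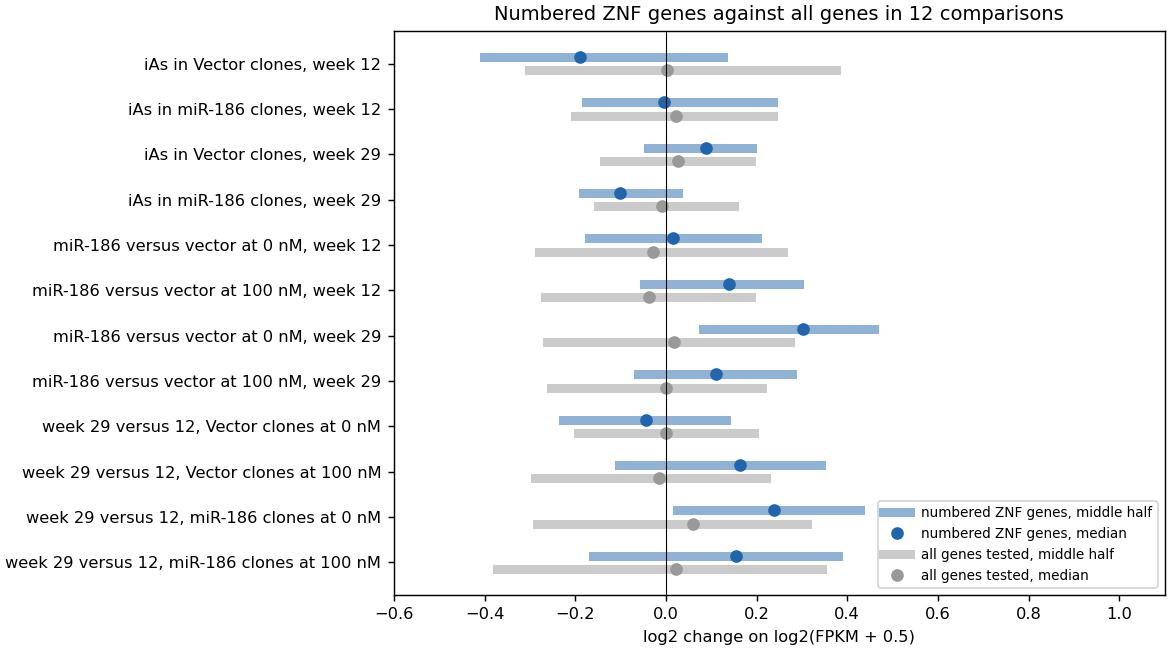
For each of the 12 comparisons, blue gives the 230 numbered ZNF genes and grey all 14228 genes tested: points are median log2 changes on log2(FPKM + 0.5) and bars the interquartile range. The blue median stands farthest right of the grey in untreated miR-186 against vector clones at week 29 (0.30 against 0.02) and farthest left for iAs in vector clones at week 12 (−0.19 against 0.00).

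Neighbouring members were compared by position after the values were seen, in the 14 groups of at least 4 members whose neighbours start within 1 Mb; these hold 111 members. On chromosome 16 between 30378106 and 30787202, the group of ZNF48, ZNF768, ZNF747, ZNF688, ZNF689 and ZNF629 was lower in miR-186 clones, with medians of −0.42 and −0.32 untreated and −0.39 and −0.53 at 100 nM (weeks 12 and 29). ZNF48 untreated at week 12 (0.08) was the 1 positive of the 24 differences. With the GC correction the medians were −0.64, −0.13, −0.25 and −0.36. On chromosome 19, all 25 members between 51571298 and 53580269 and all 17 between 57191500 and 58418327 were higher in untreated miR-186 clones at week 29 (medians 0.39 and 0.42; 0.22 and 0.26 with the GC correction). At week 12 the same groups had untreated medians of 0.04 and 0.04 (0.19 and 0.14 with the GC correction), with 15 of 25 and 9 of 17 positive. At 100 nM and week 12 their medians were 0.22 and 0.29 (0.25 and 0.31 with the GC correction), with 20 of 25 and 15 of 17 positive. At 100 nM and week 29 the medians were 0.16 and 0.21 (0.07 and 0.12 with the GC correction), with 20 of 25 and 13 of 17 positive. Untreated at week 29, other groups were also higher in every member, such as the 9 on chromosome 19 between 43827292 and 44500524. On chromosome 7 between 149126416 and 149867479, 2 of 6 were higher. Members on chromosome 19 as a whole had an untreated median of 0.34 at week 29, and the 138 others 0.26 (0.205 and 0.178 with the GC correction).

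Between weeks 12 and 29, members rose in miR-186 clones more often than they fell. At 0 nM, 14 were called higher and 1 lower (6.52%, against 2.9% of all genes tested, 1.57% called higher and 1.33% lower). At 100 nM, 28 were called higher and 6 lower (14.8%, against 12.2% of all genes tested, 7.11% called higher and 5.07% lower). The 2 comparisons shared 6 of the rises, ZNF112, ZNF140, ZNF202, ZNF510, ZNF564 and ZNF770 (42.9% of the 14 and 21.4% of the 28). On chromosome 19, where 40% of members lie, were 6 of the 14 and 13 of the 28.

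ZNF638 (ENSG00000075292, chromosome 2, 71276561 to 71435069) was the member that rose most at 100 nM. It had 36.6, 23.5 and 31.1 FPKM at week 12 and 64.2, 54.4 and 59.5 FPKM at week 29. Every late library was above every early one by a wide gap (log2 0.97, SE 0.16, limma adjusted p = 0.0021; 0.66 with the GC correction, adjusted p = 0.0050), and the call held whichever library was left out, but not in a fit of these groups alone (0.071). Untreated miR-186 clones had 36, 34.3 and 46.8 FPKM, then 60.3, 53.9 and 58.8 FPKM. Vector clones at 0 nM went the other way, from 49.2, 53.3 and 48.1 FPKM to 39.8, 36.1 and 38.9 FPKM. Untreated, the construct effect on ZNF638 differed between weeks by 0.96 (SE 0.22), which was not past the threshold (adjusted p = 0.30; 0.61, adjusted p = 0.43, with the GC correction).

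Other rises at 100 nM were led by ZNF19 (0.87, SE 0.21, adjusted p = 0.018), ZNF564 (0.86, SE 0.20, adjusted p = 0.015), ZNF112 (0.84, SE 0.23, adjusted p = 0.027), ZNF181 (0.81, SE 0.19, adjusted p = 0.014) and ZNF322 (0.78, SE 0.25, adjusted p = 0.047). ZNF564, a KRAB protein of chromosome 19, had 2.32, 2.31 and 3.37 FPKM at week 12 and 6.26, 5.14 and 4.32 FPKM at week 29. The 6 called falls were those of ZNF516, ZNF316, ZNF362, ZNF692, ZNF609 and ZNF384. ZNF358, the most variable member, had a lower estimate than any of them (−1.47, SE 0.58) but missed the threshold (adjusted p = 0.090). ZNF516, which binds the corepressor CtBP, had 4.39, 8.61 and 4.16 FPKM, then 2.04, 2.41 and 1.57 FPKM (log2 −1.26, SE 0.25, adjusted p = 0.0088). ZNF609, known as the host gene of a circular RNA, had 22.9, 29.2 and 26.9 FPKM, then 18, 18 and 15.8 FPKM (log2 −0.59, SE 0.14, adjusted p = 0.016). ZNF316 fell by 0.98 on the log2 scale (adjusted p = 0.021), but by 0.13 with the GC correction (adjusted p = 0.81).

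**Figure D4:**
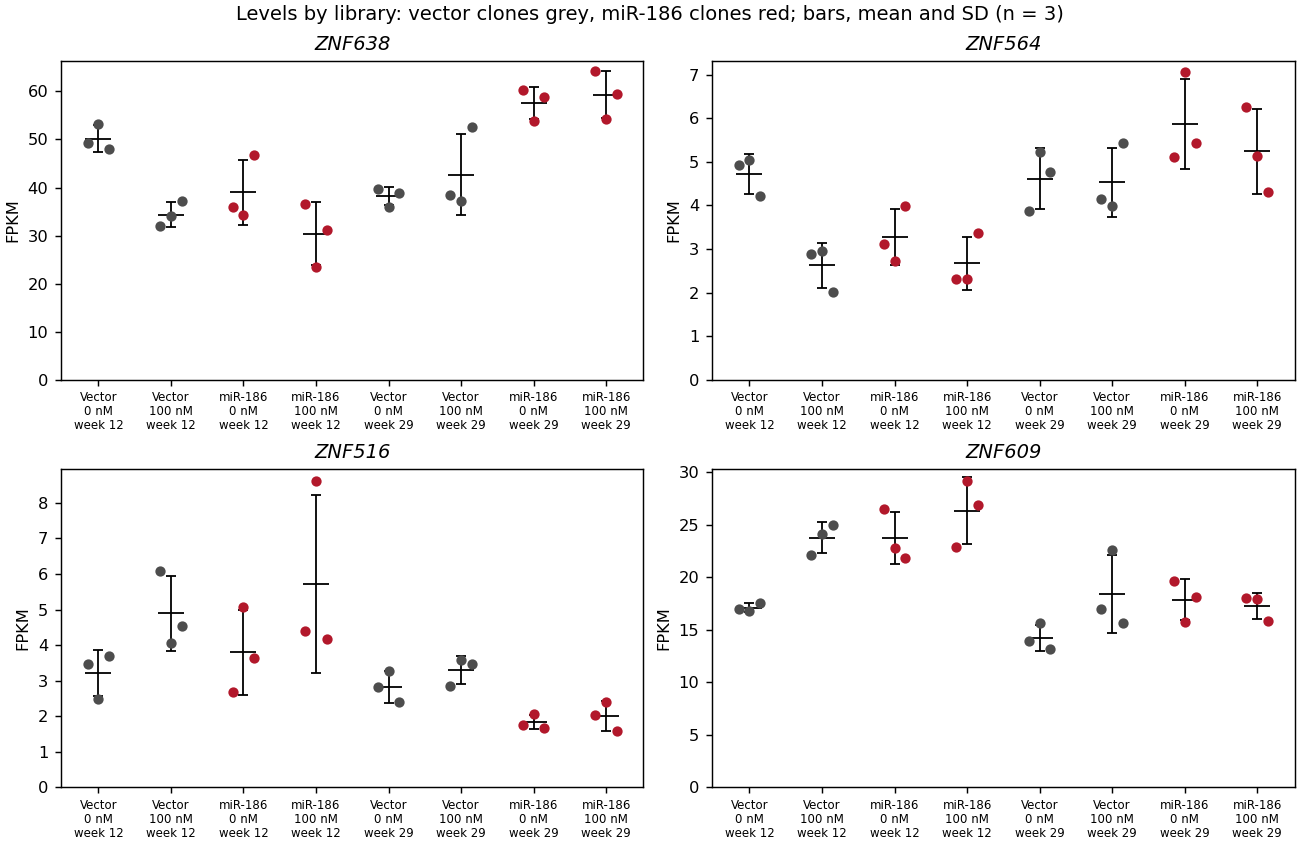
FPKM of ZNF638, ZNF564, ZNF516 and ZNF609 in the 8 groups, with 1 point per library (vector clones grey, miR-186 clones red) and bars for the mean and SD of 3 libraries. In miR-186 clones at 100 nM, ZNF638 and ZNF564 are higher and ZNF516 and ZNF609 lower in every week 29 library than in every week 12 library.

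The rises and falls at 100 nM split by base composition. Median GC content was 42.2% in the 28 rises (34.7% to 50.0%) and 56.2% in the 6 falls (51.6% to 68.3%), and over the 230 members the log2 change went with GC content at a Spearman rho of −0.48, as a description across genes. With the GC correction rho was 0.11, the median change went from 0.15 to 0.02 (0.02 over all genes before and after), and 9 members were called, 4 higher and 5 lower. Of all genes 5.42% were called with the correction. Of the 34 calls 5 were kept: ZNF638, ZNF19, ZNF564, ZNF516 and ZNF609. With the replicate number as a block, 53 members were called, 38 higher and 15 lower, against 3194 of all 14228 genes. This block assumes that equal numbers pair the samples, which the labels do not state. The block with the GC correction gave 31, 13 higher and 18 lower, against 1944 of 14208 genes. Leaving out miR-186 100 nM week 12 replicate 2 left 1 call, and leaving out week 29 replicate 1 left 3, replicate 3 left 10 and week 12 replicate 1 left 21.

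**Figure D5:**
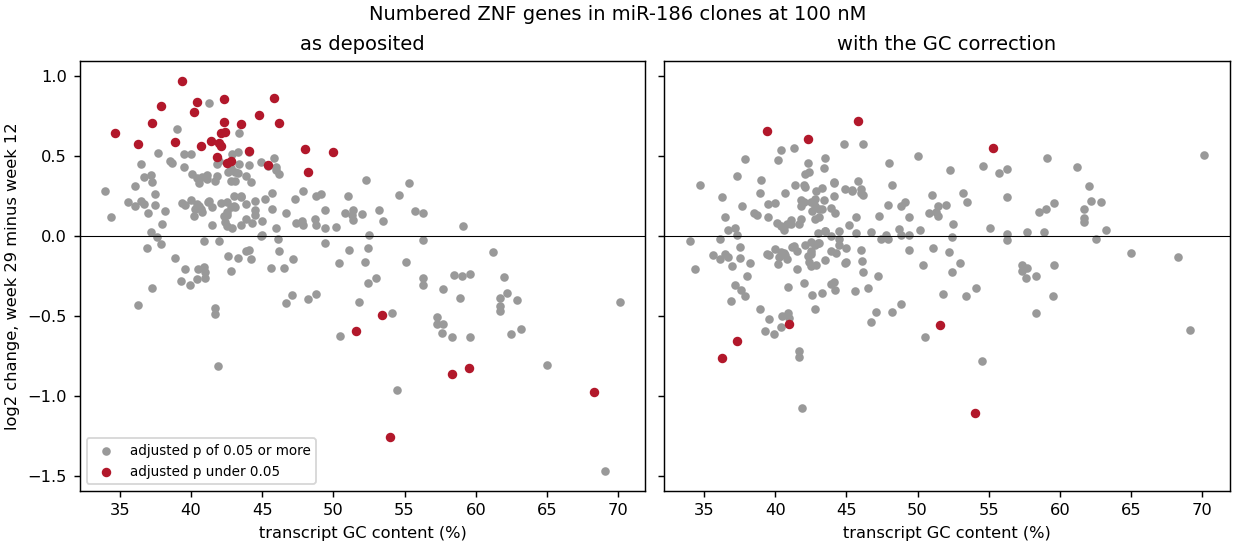
Log2 change from week 12 to week 29 in miR-186 clones at 100 nM against transcript GC content (%), 1 point per numbered ZNF gene, with adjusted p under 0.05 in red. On the left, without the correction, GC-poor members lie above 0 and GC-rich ones below; on the right, with the GC correction, rho is 0.11 and 9 members are red.

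At 0 nM the largest called rises in miR-186 clones were those of ZNF550 (1.06), ZNF449 (0.93), ZNF791 (0.91), ZNF112 (0.90), ZNF302 (0.87) and ZNF621 (0.85), with adjusted p between 0.0095 and 0.040. ZNF791 had 5.27, 7.40 and 6.31 FPKM at week 12 and 10.1, 14.5 and 12.5 FPKM at week 29. It was called in 5 of 6 fits without 1 library and with the GC correction (0.69, adjusted p = 0.039). With that correction 3 members were called, all higher, with 2.36% of all genes called, and the median change went from 0.24 to 0.12. With the replicate number as a block as well, 18 were called, 13 higher and 5 lower, against 953 of 14208 genes. Median ratio scaling of the libraries left 5 rises and 1 fall, with 315 of 14228 genes called. Leaving out miR-186 0 nM week 12 replicate 1 or 2 left 0 and 1 calls, and leaving out week 29 replicate 1, 2 or 3 left 2, 4 and 1.

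ZNF394 (ENSG00000160908, chromosome 7, 99486519 to 99500324), a KRAB and SCAN protein, was the member that fell in untreated clones of both constructs. Vector clones had 10.6, 14.7 and 12.3 FPKM at week 12 and 6.84, 8.70 and 6.93 FPKM at week 29 (log2 −0.70, SE 0.14, adjusted p = 0.018). In miR-186 clones the levels were 13.5, 12.3 and 12.5 FPKM, then 8.60, 9.01 and 8.06 FPKM (log2 −0.55, SE 0.14, adjusted p = 0.040). The weeks did not overlap in either construct. The change was −0.71 and −0.51 with the GC correction (adjusted p = 0.010 and 0.0504), and ZNF789 overlaps the gene on the other strand. In vector clones at 0 nM ZNF394 was the 1 member called (0.435%, against 0.907% of all genes tested). It was lost without week 12 replicate 2, week 29 replicate 1 or week 29 replicate 3.

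In vector clones at 100 nM no member was called (0%, against 0.183% of all genes tested). An unadjusted p under 0.05 was found for 46 (20%, against 14.5% of all genes tested), 42 of them higher at week 29. The smallest p-values belonged to ZNF181 (log2 0.86, SE 0.19, adjusted p = 0.057), ZNF770 (0.72, SE 0.16, adjusted p = 0.072) and ZNF12 (0.62, SE 0.15, adjusted p = 0.087). Without vector 100 nM week 29 replicate 2, 4 members were called, and without week 12 replicate 3, 1.

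Arsenic was followed by few called changes in these genes. In vector clones at week 12, 3 members were lower at 100 nM (1.30%, against 0.731% of all genes tested called lower) and 0 were higher (0.654% of all genes), which together is 1.38% of all genes. ZNF670 had 3.77, 5.18 and 4.55 FPKM at 0 nM and 2.74, 2.62 and 1.95 FPKM at 100 nM (log2 −0.77, SE 0.18, adjusted p = 0.048). ZNF140 had 19.2, 19.3 and 16.9 FPKM against 12.5, 10.1 and 12.4 FPKM (−0.65, SE 0.14, adjusted p = 0.042). ZNF561 had 30.9, 30.1 and 26.6 FPKM against 21.1, 19 and 18.4 FPKM (−0.57, SE 0.14, adjusted p = 0.048). The doses did not overlap in any of the 3. None was called with the GC correction (−0.42, −0.47 and −0.34; adjusted p = 0.25, 0.15 and 0.21), and none when any 1 of the 6 libraries was left out.

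The members as a group followed GC content in that comparison. The median was −0.19 against 0.00 over all genes, −0.37 in the 77 members of lowest GC content and 0.24 in the 77 of highest, with a Spearman rho of 0.62 between change and GC content across the 230. After the GC correction the 3 medians were −0.02, −0.01 and −0.02. Median ratio scaling of the libraries gave 1 rise and 11 falls, with 485 of 14228 genes called.

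In the other 3 arsenic comparisons 0 members and 0 of all genes tested (0%) were called by limma. Members with an unadjusted p under 0.05 numbered 26 in miR-186 clones at week 12, 7 in vector clones at week 29 and 2 in miR-186 clones at week 29. These are 11.3%, 3.04% and 0.87% of members, against 11%, 3.9% and 2.19% of all genes tested. Every other fit run gave 0 called members as well. The smallest p-values belonged to ZNF580, ZNF692 and ZNF670 (0.67, 0.69 and −0.61, adjusted p = 0.35 each), to ZNF827, ZNF326 and ZNF138 (0.64, 0.42 and −0.51, adjusted p = 1.0 each) and to ZNF217, ZNF791 and ZNF721 (−0.37, −0.38 and −0.31, adjusted p = 0.999 each). The standard error of a member's log2 difference had a median of 0.19, so small changes were not detectable with these libraries.

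The 4 differences of effects, which ask whether the arsenic effect differed between constructs at a week or the construct effect between weeks at a dose, gave 0 called members and 0 of all genes tested (0%) by limma. Members with an unadjusted p under 0.05 numbered 6 and 4 for arsenic at weeks 12 and 29, and 41 and 3 for the construct at 0 and 100 nM. These are 2.61%, 1.74%, 17.8% and 1.3% of members, against 2.96%, 1.91%, 13.4% and 2.54% of all genes tested. The largest group difference was that of the untreated construct effect between weeks (median 0.29 against 0.09 over all genes; 0.10 with the GC correction). Its smallest p-values belonged to ZNF638, ZNF140 (0.83, SE 0.20) and ZNF562 (0.89, SE 0.24), with an adjusted p of 0.30 each. ZNF140 also led the arsenic difference at week 12 (0.65, SE 0.20, adjusted p = 0.98), and ZNF217 that at week 29 (−0.63, SE 0.21, adjusted p = 1.0).

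Members were also grouped by described roles. Of 11 that act on RNA, the ribosome or the spindle, ZNF638 and ZNF830 were called higher in untreated miR-186 clones at week 29 and ZNF638 in the week comparison above; ZNF207, ZNF622, ZNF593, ZNF598, ZNF706, ZNF326, ZNF330, ZNF346 and ZNF106 were called nowhere. Of 2 members linked to epithelial or tumour cells, ZNF217 was called once and ZNF185, a LIM protein of the actin skeleton, nowhere. Of 13 chromatin and promoter factors without a KRAB box, calls were made only from week 12 to 29 in miR-186 clones at 100 nM: ZNF644 (0.71, SE 0.18), ZNF146 (0.60, SE 0.16) and ZNF131 (0.46, SE 0.13) rose and ZNF362 (−0.86, SE 0.25) and ZNF384 (−0.49, SE 0.16) fell, and none of the 5 was called with the GC correction. Of 8 KRAB proteins with a described target, ZNF202, a repressor of lipid genes, rose with weeks in miR-186 clones at both doses (0.66 and 0.53, SE 0.17; adjusted p = 0.037 and 0.044; 0.054 and 0.066 with the GC correction). ZNF274, which brings SETDB1 to ZNF clusters, ZNF91, ZNF263, ZNF267, ZNF268, ZNF331 and ZNF350 were called nowhere.

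The partners through which KRAB proteins act were looked at in the same way. Of 24 genes of the corepressor and heterochromatin machinery, TRIM28 (81.2 to 237 FPKM), SETDB1 (27.9 to 50.1 FPKM) and CHD4 were called in no comparison. TRIM28 still had 112, 106 and 120 FPKM at 0 nM and 186, 185 and 227 FPKM at 100 nM in vector clones at week 12. In that comparison 14 of the 24 had an unadjusted limma p under 0.05, against 29.3% of all genes tested. Calls were MORC3 (−0.86, SE 0.18) and HDAC2 (−0.60, SE 0.14) lower with arsenic in vector clones at week 12, EHMT1 (0.54, SE 0.13) and CBX1 (0.49, SE 0.13) higher in untreated miR-186 clones at weeks 12 and 29, and ATF7IP (−0.66, SE 0.20) and EHMT1 (−0.46, SE 0.13) lower at week 29 in miR-186 clones at 100 nM. These are 8.33%, 4.17%, 4.17% and 8.33% of the 24 in those comparisons, against 1.38%, 3.44%, 2.86% and 12.2% of all genes tested. With the GC correction ATF7IP alone stayed called (−0.96, adjusted p = 0.0050), a fit of the groups compared alone gave none of the 6, and each was called in at most 1 of 6 fits without 1 library. Of 87 measured genes of 6 other finger families named ZBTB, ZSCAN, ZKSCAN, ZFP, KLF and SP, 0 and 3, 2 and 1, 5 and 2, and 2 and 1 were called higher and lower in the construct comparisons (untreated and 100 nM at week 12, then at week 29). Of all genes tested, 3.44%, 2.02%, 2.86% and 0.864% were called in those comparisons in either direction. From week 12 to 29 in miR-186 clones at 100 nM, 4 rose and 7 fell, against 28 rises and 6 falls among the 230 numbered ZNF genes. KLF genes made up 5 of the 7 falls and 0 of the rises. Median changes were −0.681 in KLF, −0.015 in ZBTB, 0.127 in SP, 0.197 in ZFP, 0.198 in ZSCAN and 0.331 in ZKSCAN genes. The median of the 230 was 0.154. Of all genes tested, 7.11% were called higher there and 5.07% lower. With the GC correction the 230 had 4 rises and 5 falls, and the other families were not counted with that correction.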

How the data were processed

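Messenger RNA of 24 HaCaT libraries was measured as FPKM. Per the labels' protocols, RNA was extracted with the mirVana kit and libraries were made with the TruSeq Stranded mRNA kit, pooled and sequenced together. Per the submitters' processing notes the authors used STAR (2.6.0c), Cuffdiff (2.2.1) and hg38, and deposited 1 table of FPKM per gene. The annotation release and strand setting are not given in the sources used here, and read depth cannot be taken from FPKM. The p-values rest on the spread between clonal libraries within groups, pooled over all 8 groups and moderated across genes, not on the 3 libraries of a group alone.

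From this table, log2(FPKM + 0.5) was fitted with limma (3.58.1, R 4.3.3; trend and robust moderation, all 8 groups in 1 fit) for 14228 genes with a mean of 0.5 FPKM or more. P-values were adjusted by Benjamini-Hochberg over all of them, with a threshold of 0.05. Symbols matched 57740 of 58381 gene IDs, and 58261 are in GENCODE release 29, which gave positions, transcripts and GC content (that of the longest protein-coding transcript). For the GC correction, each library's curve on GC content (natural spline, 5 df, drawn through genes over 1.5 FPKM) was subtracted from the values of 14208 genes. Near-identical ZNF genes, and the 72 members that overlap another gene of at least 0.5 FPKM, may share reads. Start regions are RefSeq's (GRCh38.p14).

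The members and gene lists were chosen with earlier results of these data known. The text names the 8 highest members, up to 6 rises and 6 falls per comparison (or the 3 smallest p-values where none passed), members called in 2 or more construct comparisons, the 3 genes either side of 3 FPKM, and members of the role lists; others were chosen after their values were seen. Splits by KRAB box or miR-186 site were not analysed here. The labels do not say that a replicate number pairs samples, and between constructs it cannot mark the same clone. Same-numbered libraries deviated together in some comparisons, at a correlation over 0.1 in every pair. These were iAs in vector clones and untreated constructs, both at week 29. They were also weeks in vector clones at 0 nM and in miR-186 clones at 100 nM. Elsewhere the correlation was as low as −0.419 (constructs at 100 nM and week 29, replicate 1). The replicate block is thus an assumed pairing. Alternatives were other pseudocounts (0.1 and 1), other filters, median ratio scaling, the GC correction, a replicate block, only the groups compared, and each library left out. The fit was tested on simulated data.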

Additional observations from a re-analysis of the deposited data

How the results depend on the processing

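Counts are of members called, in either direction, and the count over all genes moved with the setting too. With the replicate block, 1428 of 14228 genes were called for arsenic in vector clones at week 12, in place of 197. For weeks in miR-186 clones at 100 nM the block gave 3194 genes in place of 1732. With the GC correction, arsenic in vector clones at week 12 gave 0 calls in place of 3, miR-186 against vector at 100 nM and week 12 gave 12 in place of 6, and from week 12 to 29 there were 3 in place of 1 (vector, 0 nM), 3 in place of 15 (miR-186, 0 nM) and 9 in place of 34 (miR-186, 100 nM). Median ratio scaling gave 12 and 6 for arsenic in vector clones at week 12 and weeks in miR-186 clones at 0 nM, and a filter at a mean of 1 FPKM gave 7 for the former. Without a filter on low values more genes are tested, and 0, 4, 3, 6, 3 and 11 members were called for arsenic in vector clones at week 12, miR-186 against vector at week 12 (0 and 100 nM) and at 0 nM and week 29, and weeks in miR-186 clones (0 and 100 nM). A fit on only the 6 libraries compared gave 0, except for 1 and 2 calls untreated at weeks 12 and 29 between constructs. With the replicate number as a block, 24 were called for arsenic in vector clones at week 12, 11 and 2 between constructs at 100 nM (weeks 12 and 29), and 9, 34 and 53 from week 12 to 29 (vector at 100 nM, miR-186 at 0 and 100 nM). With the block and the GC correction these were 0 for arsenic, 18 between untreated constructs at week 12, 14 and 5 at 100 nM, 5 each for weeks in vector clones at 0 and 100 nM, and 18 and 31 for weeks in miR-186 clones. Where same-numbered libraries deviated together in every pair, the block changed no other count by over 1.5 times. Leaving out 1 library gave 0 for arsenic in vector clones at week 12, 1 to 4 and 3 to 9 between untreated constructs (weeks 12 and 29), 1 to 6 and 0 to 5 between constructs at 100 nM, 0 to 1 and 0 to 4 for weeks in vector clones (0 and 100 nM), and 0 to 22 and 1 to 36 for weeks in miR-186 clones. No named gene changed direction under any of these settings; of 82 gene results 53 were called, and of these 26 lost their call with the GC correction, 50 in the fit on the groups compared, and all but 5 in at least 1 fit without a library. The causes were not tested. With 3 libraries a group and low FPKM, small changes of these genes were not detectable.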
